A study of Mus musculus with 2 samples.

Results

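The genes described here are 10 imprinted genes, or genes imprinted in some tissues, that lie outside the large imprinted clusters: Peg3, Usp29, Zim1, Plagl1, Zrsr1, Nap1l5, Impact, Nnat, Blcap and Gatm. They were found by symbol in the deposited table, where they account for 12 of 29126 entries, because Peg3 has 3 entries. All 12 entries had the status OK, which Cuffdiff gives to an entry that it could test. RNA was sequenced from mouse embryonic fibroblasts (MEFs) in 1 library of Dnmt1+/+ and 1 library of Dnmt1-/- cells. The line called Dnmt1-/- is homozygous for a hypomorphic allele of Dnmt1, the gene for the maintenance DNA methyltransferase, and cells of both genotypes are also null for trp53, which encodes p53. The strain is not known, and no age or sex is given in the labels.

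Imprinted genes are expressed from the allele of one parent. The choice is set by differentially methylated regions, which carry DNA methylation on the maternal or the paternal chromosome from the germ line onwards and are copied at each cell division by Dnmt1. Peg3, Plagl1, Zrsr1, Nap1l5, Impact and Nnat each have such a region at or near their promoter, methylated on the maternal chromosome, and are expressed from the paternal allele, as is Usp29, which starts beside Peg3. Zim1, next to Peg3, is expressed from the maternal allele. Maternal expression has been described for Blcap in brain and for Gatm in placenta and yolk sac. Several members are small genes inside a host gene: Nap1l5 inside Herc3, Zrsr1 inside Commd1 and Nnat inside Blcap. The RPKM values hold no allele information, so a level is the sum over both alleles.

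Expression was measured as RPKM, which divides the reads on a transcript by its length and by all reads mapped. Changes were computed as the difference of log2(RPKM + 0.1), Dnmt1-/- minus Dnmt1+/+, on which changes at low RPKM come out too small. A gene was counted as higher or lower when it was more than 2-fold apart on this scale. Counts were made over entries with a symbol, the status OK and a level of 1 RPKM or more in either library, and 11244 such entries are called the genes kept. Each genotype has 1 library, so no difference could be set against the spread between cultures, and no p-value is given. In bulk RNA fewer expressing cells and less RNA per cell cannot be told apart. The 2 lines also differed in RNAs of the sex chromosomes. Xist, the RNA that silences an X chromosome, was at 0.00648 RPKM in Dnmt1+/+ and 37.0 in Dnmt1-/-. The Y-linked Ddx3y was at 13.9 in Dnmt1+/+ and listed at 0 in Dnmt1-/-. Differences between lines and differences of genotype cannot be told apart. Dnmt1 itself was at 65.2 RPKM in Dnmt1+/+ and 14.5 in Dnmt1-/- cells. All 10 fibroblast markers examined reached 1 RPKM, with Vim at 2269 and 1873 RPKM and Col1a1 at 1448 and 898, although 2 were higher and 3 lower in Dnmt1-/-, among them Thy1 at 4.84 and 0.129. Their summed RPKM was 6291 in Dnmt1+/+ and 4980 in Dnmt1-/-. Among all genes kept 8.47% were higher and 10.9% lower.

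Of the 10 genes, 7 passed the limit of 1 RPKM, in 8 entries, and a gene absent from one library could pass only by its level in the other. Of these entries, 1 (Gatm) was higher and 2 (both named Peg3) were lower in Dnmt1-/- MEFs, while 5 (Plagl1, Zrsr1, Impact, Nnat and Blcap) stayed within 2-fold. Among all genes kept 8.47% were higher, 10.9% lower and 19.4% one or the other. With 8 entries, a count of 3 is too small to be read against these percentages. With no limit on low RPKM the same 3 of 12 entries passed 2-fold, against 9.92% higher, 11.1% lower and 21.1% either way of all entries with a symbol. Equal RNA from a second allele would give 2-fold, which a limit of more than 2-fold does not count. These counts therefore cannot show whether a silent allele was expressed, and allele use was not tested. No entry bearing the symbol of a paternally expressed member was more than 2-fold higher. For Nap1l5, listed at 0 in both libraries, this is uncertain. At its locus XLOC_021530, an entry named Herc3, was listed at 0 for Dnmt1+/+ and at 27.7 RPKM for Dnmt1-/-, as described below. The median log2 change of all genes kept was -0.14, and the median of the 8 entries was -0.34. The entries not in this count are Usp29, Zim1, Nap1l5 and the third Peg3 entry.

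**Figure D1:**
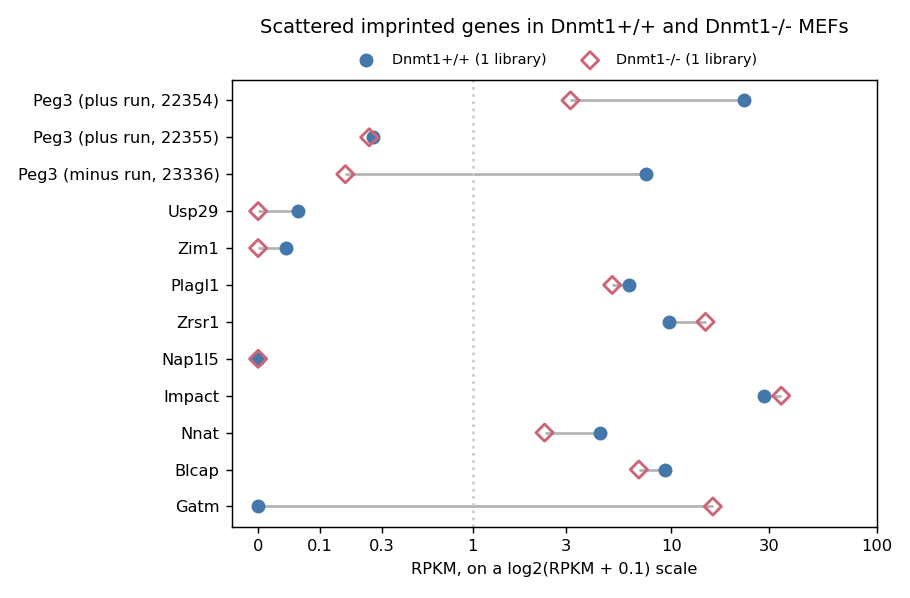
RPKM of the 12 entries of the 10 genes, on a log2(RPKM + 0.1) axis. Filled circles are the Dnmt1+/+ library and open diamonds the Dnmt1-/- library, 1 library each, and the dotted line marks 1 RPKM. The Peg3 entries are told apart by the last digits of their identifier and by the run of entry numbers they belong to. Gatm, at 0 and 15.9 RPKM, and Peg3 stand out, while Plagl1, at 6.17 and 5.11 RPKM, and Impact, at 28.3 and 34.3, have symbols close to each other.

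Peg3 encodes a large zinc finger protein expressed from the paternal allele, and in mice it is known for roles in growth and maternal behaviour. Its annotated span in mm9 is 6656603 to 6683132 of chromosome 7, minus strand. The entry that belongs to this strand, XLOC_023336, had 7.53 RPKM in the Dnmt1+/+ library. In Dnmt1-/- it had 0.165 RPKM. The entry was 45.7-fold lower as a ratio of RPKM, and its log2 change was -4.85. Its level lay above that of 38.1% of the genes kept in Dnmt1+/+ and of 1.44% in Dnmt1-/-.

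The strand of an entry is not given in the table and was read from the entry numbers. On each chromosome the numbers form a run of plus strand genes, a run of minus strand genes and a last run that holds 7868 of the 8214 entries without a symbol. For symbols with 1 annotated gene, the run matched the annotated strand in 99.1% of 19732 entries. The ends of the runs were placed where they best matched the annotated strands and the missing symbols. These figures therefore describe the fit and are not an independent check. By this reading, 2 of the Peg3 entries and Apeg3, a known antisense transcript of the locus, are numbered with the plus strand. The Peg3 entry XLOC_022354 of the plus run had 22.5 RPKM in Dnmt1+/+ and 3.17 in Dnmt1-/-, a log2 change of -2.79. Its level was thus higher than that of the sense entry in both libraries. The third Peg3 entry, XLOC_022355, was at 0.262 and 0.246 RPKM.

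Apeg3 had 5.48 RPKM in Dnmt1+/+ and 0.303 in Dnmt1-/-. The plus run also held entries without a symbol over the last exon of Peg3. The entry from 6656637 to 6657025 had 16.8 RPKM in Dnmt1+/+ and 1.07 in Dnmt1-/-. The entry from 6658187 to 6658647 had 19.9 and 0.729 RPKM. Of the 6 entries over Peg3, 5 were therefore lower in Dnmt1-/-, in the plus and in the minus run, and the sixth was under 1 RPKM in both libraries. Among entries without a symbol that reached 1 RPKM, 26.9% were lower and 19.3% higher.

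In the table, 130 symbols had entries in the run of their own strand and in the opposite run. In 52 of these (40.0%) the opposite run had the higher summed RPKM in Dnmt1+/+. The libraries were strand-specific, but whether read orientation entered the RPKM is not given in the sources used here. How much of the plus strand signal at Peg3 is antisense RNA and how much is Peg3 mRNA cannot be told apart from these values.

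Usp29, a deubiquitinase gene expressed mostly in brain and testis, and Zim1, a zinc finger gene, were near 0 throughout. Usp29 was at 0.0562 RPKM in Dnmt1+/+ and listed at 0 in Dnmt1-/-. Zim1 was at 0.0371 RPKM in Dnmt1+/+ and listed at 0 in Dnmt1-/-. Zim3, which shares the Usp29 locus, was at 0.00869 RPKM and listed at 0. No entry over Zim1, Peg3 or Usp29 was higher in Dnmt1-/-.

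**Figure D2:**
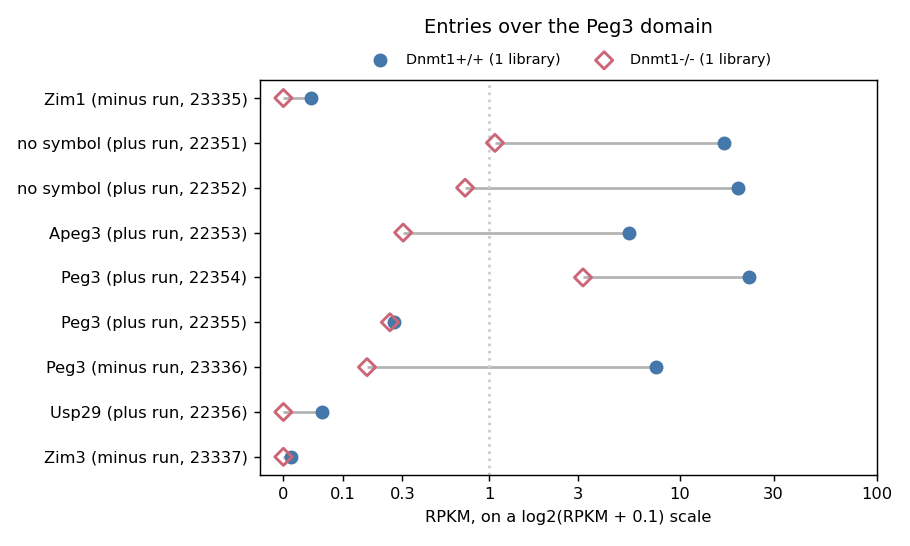
RPKM of the entries over Zim1, Peg3 and Usp29, in chromosome order of the genes, on a log2(RPKM + 0.1) axis. Circles are the Dnmt1+/+ library and diamonds the Dnmt1-/- library, and the run gives the strand read from the entry number. All entries over Peg3 except XLOC_022355, at 0.262 and 0.246 RPKM, lie lower in Dnmt1-/-, in the plus and in the minus run.

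Peg3 and Usp29 start close together and are read away from each other. In the RefSeq promoter table the start of Usp29 lies 164 bases from that of Peg3, whereas GENCODE places the Usp29 start at 6913871. The promoter window of Peg3, 250 bases before to 50 after the start, is shown here because it also covers the Usp29 start, and each CpG, the dinucleotide that is methylated, is in capitals. The table is of GRCm38.p6, and the window was placed in mm9 by an exact match, at chr7:6683081-6683380 on the minus strand.

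Peg3 promoter: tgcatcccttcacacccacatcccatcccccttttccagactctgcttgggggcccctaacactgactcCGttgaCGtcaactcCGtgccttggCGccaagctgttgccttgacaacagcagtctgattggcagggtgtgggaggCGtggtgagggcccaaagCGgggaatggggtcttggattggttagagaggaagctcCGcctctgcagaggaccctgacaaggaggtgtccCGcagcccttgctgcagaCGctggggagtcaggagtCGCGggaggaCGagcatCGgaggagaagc

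This window holds 13 CpGs, where the median over 32851 promoter windows of the same length was 7. The first intron of Peg3 is known for tandem copies of a binding site of Yy1, a zinc finger transcription factor, within its differentially methylated region. The letters GCCATCTT, searched on both strands, were found 11 times from 1000 bases before the Peg3 start over a window of 5000 bases. In windows of the same kind at 7786 protein-coding genes of the same chromosomes, 31.4% held at least 1 match and 2 held 11 or more, Peg3 among them. Among the other members examined, 1 match was found at Gatm and 0 at each of the rest. The 300 bases with the most matches, chr7:6680383-6680682 of mm9 on the minus strand, overlap 0 annotated exons of Peg3 and are shown with the 3 matches in capitals.

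Peg3 intron: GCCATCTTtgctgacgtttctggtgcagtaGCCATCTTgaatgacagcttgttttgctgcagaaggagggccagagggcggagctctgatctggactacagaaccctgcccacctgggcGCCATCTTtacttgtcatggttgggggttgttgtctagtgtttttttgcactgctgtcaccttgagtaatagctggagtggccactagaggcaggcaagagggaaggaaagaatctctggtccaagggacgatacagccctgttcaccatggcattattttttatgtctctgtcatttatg

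Yy1 itself was at 18.5 RPKM in Dnmt1+/+ and 24.0 in Dnmt1-/-, within 2-fold. A match is a description of the sequence and says nothing about binding in these cells.

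Of 9 entries of other genes in and beside the Peg3 domain, 4 reached 1 RPKM and 1 of these, Apeg3, was lower. Among all genes kept 10.9% were lower. Zfp28, the nearest kept gene on the Zim1 side, had 2.63 RPKM in Dnmt1+/+ and 1.42 in Dnmt1-/-. On the other side Zfp418 had 1.08 and 0.511 RPKM, and the joint entry of Zfp772 and Zfp954 had 3.34 and 2.60. These zinc finger genes were lower by less than 2-fold on the log2(RPKM + 0.1) scale, with log2 changes between -0.95 and -0.35. Of the proteins known to act with Peg3 in cell death, Siah1a was at 8.58 and 6.61 RPKM, Traf2 at 13.8 and 13.6 and Bax at 56.7 and 51.2. None of the 6 kept entries of this list, Trp53 at 18.6 and 19.9 RPKM included, changed more than 2-fold, where 19.4% of all genes kept did. RNA of Trp53 was thus present in cells of both genotypes, although they are described as null for it.

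Gatm, the glycine amidinotransferase that makes the precursor of creatine from arginine and glycine, was the one member that was higher. It lies on chromosome 2 from 122420203 to 122437039, on the minus strand. Its value was listed as 0 for the Dnmt1+/+ library and was 15.9 RPKM for Dnmt1-/-, above 62.1% of the genes kept in that library. No fold is given against a value of 0. Of its coding transcripts 0% of words of 50 bases, the read length, occurred in a transcript of another gene. Of its neighbours, 0 of 5 kept entries were higher and 2 were lower, against 8.47% and 10.9% of all genes kept. Slc30a4, a zinc transporter gene, went from 33.3 to 15.1 RPKM, and Bambi-ps1 from 1.01 to 0.118.

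The promoter window of Gatm, chr2:122436964-122437263 of mm9 on the minus strand, is shown with its CpGs in capitals because Gatm was listed at 0 in one library and not in the other.

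Gatm promoter: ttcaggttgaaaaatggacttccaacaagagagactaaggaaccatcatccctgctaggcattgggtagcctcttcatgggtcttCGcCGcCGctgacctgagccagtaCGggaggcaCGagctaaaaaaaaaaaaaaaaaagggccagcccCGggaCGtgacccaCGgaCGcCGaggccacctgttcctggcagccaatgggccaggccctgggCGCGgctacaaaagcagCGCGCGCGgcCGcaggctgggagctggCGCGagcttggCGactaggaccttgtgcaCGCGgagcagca

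It holds 22 CpGs, more than 76.9% of promoter windows.

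The other steps of creatine metabolism differed less. Gamt, which methylates guanidinoacetate to creatine, was at 23.8 RPKM in Dnmt1+/+ and 19.1 in Dnmt1-/-. Slc6a8, the creatine transporter, was at 12.3 and 17.3. Ckb, the brain-type creatine kinase, was 3.06-fold higher, at 11.3 and 34.8 RPKM. With Gatm itself included, 2 of 4 kept entries of this list were higher, against 8.47% of all genes kept. A count over 4 entries is too small to be read against this percentage. The muscle and mitochondrial kinases Ckm, Ckmt1 and Ckmt2 stayed under 1 RPKM.

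Of enzymes of arginine, ornithine and proline metabolism, which share substrates with Gatm, 2 of 6 kept entries were lower and 0 higher. Among all genes kept 10.9% were lower and 8.47% higher, and 6 entries are too few to be read against these percentages. Pycr1, the last step of proline synthesis, went from 25.8 to 6.05 RPKM and Aldh18a1, the first step, from 104.1 to 41.8. Oat, which interconverts ornithine and the proline precursor, was at 60.4 and 57.6 RPKM.

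Markers of yolk sac and placenta, where Gatm is imprinted, were low. Of 10 such markers, 1 reached 1 RPKM, and 4 defining markers (Ttr, Tpbpa, Elf5 and Gcm1) were listed at 0 in both libraries. Cubn went from 0.920 to 2.14 RPKM and Afp from 0.0207 to 0.346. The summed RPKM of the entries with status OK was 1.001 in Dnmt1+/+ and 2.55 in Dnmt1-/-. Among 6 macrophage markers Csf1r went from 0.0702 to 6.08 RPKM and Cd68 from 0.596 to 3.63, while Ptprc, Emr1 and Tyrobp were listed at 0 in both libraries, and the list summed to 0.666 and 9.71 RPKM. In the other lists, Myf5 of 6 skeletal muscle markers went from 0.106 to 3.28 RPKM and the joint entry of Krt14 and Krt17 of 6 epithelial markers from 0.0349 to 1.46. The muscle list summed to 29.3 and 46.1 RPKM, nearly all of it Acta1, and the epithelial list to 0.274 and 2.19, and 0 of 6 endothelial markers reached 1 RPKM. The part of these markers in the Gatm difference was not tested.

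Plagl1, Impact and Zrsr1 are paternally expressed genes that were expressed in both libraries and stayed within 2-fold. Plagl1 (also called Zac1), a zinc finger transcription factor that restrains proliferation, lies on chromosome 10 from 12810497 to 12851500 on the plus strand. It had 6.17 RPKM in Dnmt1+/+ and 5.11 in Dnmt1-/-, a ratio of 0.829. Its relative Plagl2 was at 5.52 and 3.32 RPKM. Plag1 was lower, at 1.27 and 0.420 RPKM. The 4 kept neighbours of Plagl1 had log2 changes between -0.04 and 0.24.

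Plagl1 is known to act on a network of imprinted genes. Of 14 kept entries, 4 were higher and 8 lower, against 8.47% and 10.9% of all genes kept. These counts include Gatm and both lower Peg3 entries, so that Peg3 is counted more than once. The list was assembled with earlier results of these data known. Apart from Gatm, the higher entries were Ndn, a gene of postmitotic neurons, from 0.423 to 11.4 RPKM, Sgce, a sarcoglycan gene, from 11.6 to 51.9, and H19, a noncoding RNA listed at 0 for Dnmt1+/+ and at 24.4 in Dnmt1-/-. Among the lower ones, Dlk1, an inhibitor of adipogenesis, went from 7.45 to 0.405 RPKM, Meg3, a noncoding RNA of the same domain, from 18.2 to 2.04, and Slc38a4, an amino acid transporter, from 58.1 to 0.195.

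Impact, on chromosome 18, encodes an inhibitor of GCN1-dependent activation of GCN2 (Eif2ak4), the kinase that senses amino acid shortage. Impact had 28.3 RPKM in Dnmt1+/+ and 34.3 in Dnmt1-/-, a ratio of 1.21, and no other single entry of a member had a higher RPKM in either library. Upstream of the gene lay 6 entries without a symbol, under 5 RPKM each, of which 5 were lower in Dnmt1-/-, against 26.9% of such entries in the table.

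Of the GCN2 pathway and its amino acid response genes, all 12 were kept, 6 were lower and 0 higher. Among all genes kept 10.9% were lower and 8.47% higher. The median log2 change of the 12 genes was -0.98 against -0.14 for all genes kept. Gcn1l1, the activator that Impact binds, was at 25.9 and 24.3 RPKM. Eif2ak4 went from 15.0 to 7.45 RPKM, just past the 2-fold limit, so that 5 genes were lower with a pseudocount of 1 or with the median change subtracted, while Atf4, the transcription factor downstream, was at 405.3 and 230.2, within it. Among the targets of Atf4, Asns (asparagine synthetase) went from 154.3 to 66.2 RPKM, Trib3, a pseudokinase, from 57.4 to 11.9, and Sesn2, a stress-induced regulator of growth signalling, from 13.6 to 3.56.

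Zrsr1 encodes a U2AF-like splicing protein and is a retrogene of the X-linked Zrsr2. It lies on chromosome 11 from 22873215 to 22876498 on the plus strand, inside Commd1, which is read from the minus strand. Zrsr1 had 9.67 RPKM in Dnmt1+/+ and 14.7 in Dnmt1-/-. The ratio of 1.52 was the highest among the paternally expressed members, and past 1.5-fold but not 2-fold. Its parent Zrsr2 was at 29.9 and 38.0 RPKM, a ratio of 1.27, and no word of 50 bases in the annotated coding transcripts of Zrsr1 occurred in the same orientation in those of another gene.

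Commd1, a regulator of copper handling and NF-kB, had entries in the plus and in the minus run. The entry in the run of its own strand was at 39.3 RPKM in Dnmt1+/+ and 36.3 in Dnmt1-/-. XLOC_003171, numbered with the plus strand like Zrsr1, was at 53.3 and 56.8. XLOC_003172, also of the plus run, was listed at 0 for Dnmt1+/+ and was at 2.998 RPKM in Dnmt1-/-. Annotated transcripts of Zrsr1 and Commd1 overlap in opposite orientation over 4.85% of the Zrsr1 words of 50 bases, so these values are uncertain where strand was not used.

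U2AF and minor spliceosome proteins work with Zrsr1 and Zrsr2 at splice sites. Of 12 of their genes 0 were higher and 1, Rnpc3, was lower, from 8.97 to 3.83 RPKM. Among all genes kept 8.47% were higher and 10.9% lower, so these counts do not set the list apart. U2af1 was at 61.9 and 77.6 RPKM, and U2af2 at 65.3 and 78.1.

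Nap1l5, a nucleosome assembly protein-like gene without introns, lies in an intron of Herc3, a ubiquitin ligase gene, on chromosome 6 from 58855228 to 58857120. Nap1l5 was listed at 0 in both libraries. It shares its locus with 3 entries named Herc3. The entry in the plus run, the strand of Herc3, was at 0.0957 RPKM in Dnmt1+/+ and 0.523 in Dnmt1-/-. The others are numbered in the minus run, the strand of Nap1l5. XLOC_021532 was at 2.11 RPKM in Dnmt1+/+ and listed at 0 in Dnmt1-/-, whereas XLOC_021530 was listed at 0 for Dnmt1+/+ and was at 27.7 RPKM in Dnmt1-/-.

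The entries numbered with the strand of Nap1l5 thus had RPKM above 0 in different entries in each library. The locus given in the table spans all 4 entries, from 58783693 to 58870390, so the position of each entry within it is not given, and whether XLOC_021530 holds Nap1l5 RNA was not tested. The promoter window of Nap1l5, chr6:58857071-58857370 of mm9 on the minus strand, is shown because it holds 2 matches, in capitals, to TGCCGC. This is the site read by Zfp57, a KRAB zinc finger protein that protects imprints when the site is methylated.

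Nap1l5 promoter: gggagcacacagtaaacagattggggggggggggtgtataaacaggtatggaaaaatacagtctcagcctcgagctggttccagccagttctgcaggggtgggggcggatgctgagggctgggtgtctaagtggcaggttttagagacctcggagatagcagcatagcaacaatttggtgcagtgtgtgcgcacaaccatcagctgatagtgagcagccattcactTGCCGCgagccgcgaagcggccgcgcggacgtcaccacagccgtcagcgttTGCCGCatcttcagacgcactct

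TGCCGC on either strand was found in 11.6% of promoter windows, and among the 9 members matched in the RefSeq table in those of Nap1l5, Nnat, Plagl1 and Zim1. Over the 5000-base windows it was found 8 times at Peg3, 8 at Nnat, 7 at Nap1l5, 6 at Plagl1 and 2 at Zrsr1, the paternally expressed genes with a methylated region at their start. At the GENCODE starts of Usp29, Zim1 and Blcap it was found 1 time each, at Gatm 0 times, and the median over the 7786 genes was 1. TGCCGC holds a CpG, and these windows differ in CpG number. Peg3 had 148 CpGs, Nnat 153, Nap1l5 97, Plagl1 144 and Zrsr1 122. Usp29 had 54, Zim1 89, Blcap 48 and Gatm 91, and the median over the 7786 genes was 94. The part of CpG number in the TGCCGC counts was not tested. Impact was not examined. No match at Gatm says only that these letters are not in that window.

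Of 10 factors known for keeping imprints, 8 were kept. Zfp57 was at 18.95 RPKM in Dnmt1+/+ and 10.8 in Dnmt1-/-. Trim28, its corepressor, was at 93.6 and 75.2, and Uhrf1, which brings Dnmt1 to newly copied DNA, at 49.2 and 55.1. Of 8 kept genes of this list Dnmt1 was the one past 2-fold, where 19.4% of all genes kept were.

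Nnat (neuronatin), a small membrane protein of brain and pancreas that acts on calcium stores, and Blcap, its host gene, lie on chromosome 2. Nnat spans 157385814 to 157388258 on the plus strand and Blcap 157382098 to 157397010 on the minus strand. Nnat had 4.42 RPKM in Dnmt1+/+ and 2.35 in Dnmt1-/-, a ratio of 0.531 and a log2 change of -0.88, which is short of 2-fold. Blcap had 9.30 and 6.92 RPKM, a ratio of 0.744, and 3.20% of its words of 50 bases also occur in transcripts of Gm3852. Of 9 neuronal markers found, 3 were kept and Stmn2 was lower, from 2.19 to 0.0108 RPKM, while Rbfox3, Snap25 and Elavl4 were listed at 0 in both libraries. That list summed to 21.0 and 14.7 RPKM, and its part in the Nnat values was not tested.

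At the same locus lay 4 entries without a symbol, in the last run, for which no strand is read. XLOC_015772 had 78.1 RPKM in Dnmt1+/+ and 24.9 in Dnmt1-/-, more than Nnat or Blcap in each library. XLOC_015773 was at 4.71 and 2.43 RPKM, and XLOC_015774 at 4.70 and 1.56. The short entry XLOC_015775, from 157392302 to 157392550, lies between annotated exons of Blcap and overlaps its RefSeq promoter window, 157392048 to 157392347. It went the other way, from 0.365 to 4.01 RPKM. The genes to either side, Src at 22.8 and 27.6 RPKM and Ctnnbl1 at 23.6 and 18.6 among them, did not change more than 2-fold in 5 of 5 kept entries. Among all genes kept 19.4% did. Atp2a2, the calcium pump of the endoplasmic reticulum, was at 64.4 and 74.3 RPKM, and its small inhibitors Pln and Sln were listed at 0.

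**Figure D3:**
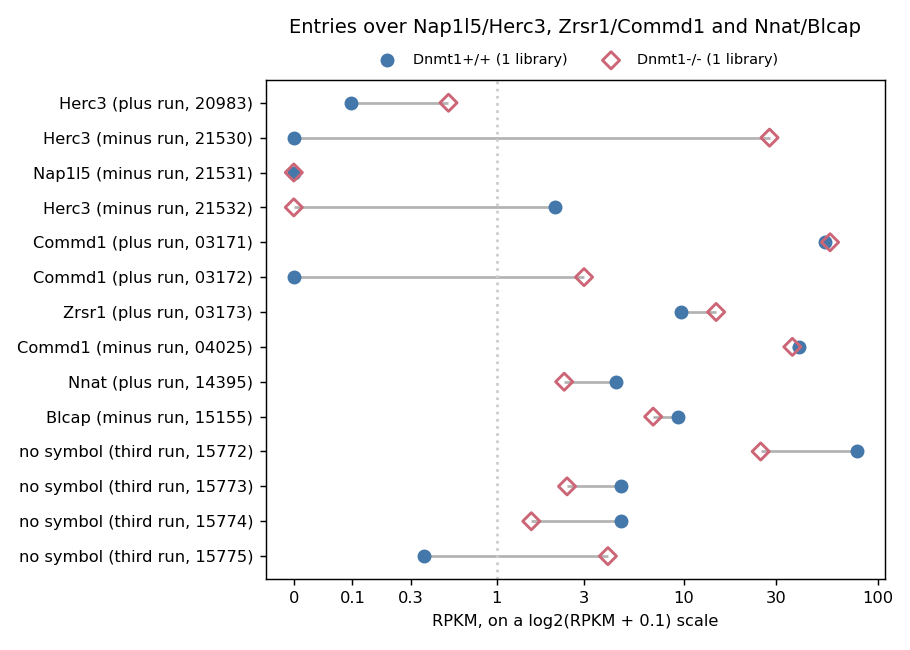
RPKM of all entries over Nap1l5 and Herc3, Zrsr1 and Commd1, and Nnat and Blcap, on a log2(RPKM + 0.1) axis, with Dnmt1+/+ as circles and Dnmt1-/- as diamonds. Zrsr1, Nnat and Blcap stay within 2-fold, and Nap1l5 is at 0. Wide gaps are seen for Herc3 entries of the minus run (0 to 27.7 and 2.11 to 0 RPKM) and a Commd1 entry of the plus run. Entries without a symbol at Blcap also have wide gaps, as does the Herc3 entry of the plus run, at 0.0957 and 0.523 RPKM.

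Across the loci, 52 entries of neighbouring and host genes were examined, of which 38 reached 1 RPKM. Of these 2 were higher (the Herc3 and Commd1 entries in the run of the inner gene) and 6 lower, against 8.47% and 10.9% of all genes kept. The lower ones were Apeg3, an entry of Herc3, Gprin3, Zfp521, Slc30a4 and Bambi-ps1. Zfp521, the next kept gene above Impact, went from 3.38 to 1.47 RPKM, and Gprin3 from 1.71 to 0.282.

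**Figure D4:**
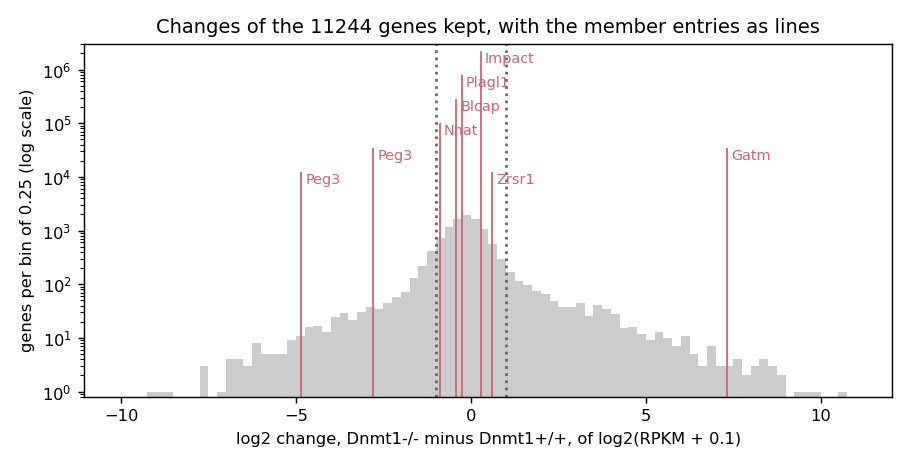
Histogram of the log2 change of the 11244 genes kept, in bins of 0.25 with a log count axis, and the 8 kept entries of the members as lines. Dotted lines mark 2-fold. Plagl1, Blcap, Nnat, Impact and Zrsr1 lie between the dotted lines, both Peg3 entries lie below and Gatm above. The place of Gatm, at 0 in Dnmt1+/+, is set by the pseudocount of 0.1.

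Other imprinted genes outside these loci moved in both directions too. Of 12 kept entries of paternally expressed genes 2 were higher and 5 lower. Of 12 kept entries of maternally expressed genes 2 were higher and 4 lower. Among all genes kept 8.47% were higher and 10.9% lower. Most of the changed entries, such as Ndn, Sgce, H19, Dlk1, Meg3 and Slc38a4, were also counted in the Plagl1 list above. These counts are therefore not separate from that one. The higher ones were Ndn and Sgce, given above, among the paternally expressed genes, and H19 and Asb4, the latter from 0.109 to 1.37 RPKM, among the maternally expressed ones. Ndn and the joint entry of Snrpn and Snurf both belong to the Prader-Willi domain and moved in opposite directions. The joint entry went from 11.1 to 0.239 RPKM. Large falls were also seen for Grb10, from 102.7 RPKM in Dnmt1+/+ to 0.0907 in Dnmt1-/-, and for Igf2, from 18.5 to 0.0544. Igf2r was at 34.6 RPKM in Dnmt1+/+ and under 1 RPKM in Dnmt1-/-. These genes are in the Plagl1 list too. One of the lower entries, Inpp5f, bears the symbol of the host gene of an imprinted transcript and does not measure that transcript by itself. Mcts2, which like Nap1l5 and Zrsr1 is a paternally expressed retrogene in a host intron, was at 9.65 and 10.3 RPKM, and its host H13 at 34.1 and 29.7.

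The Nap1l and Usp families hold the nearest relatives of Nap1l5 and Usp29. Nap1l1 had 206.2 and 123.6 RPKM, and Nap1l4 had 47.7 and 52.2. In the family 1 of 6 kept genes, Tspyl2, was lower, from 26.2 to 10.1 RPKM, where 10.9% of all genes kept were lower. Usp37 was at 11.5 and 9.32 RPKM, and Usp26 stayed under 1 RPKM.

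**Figure D5:**
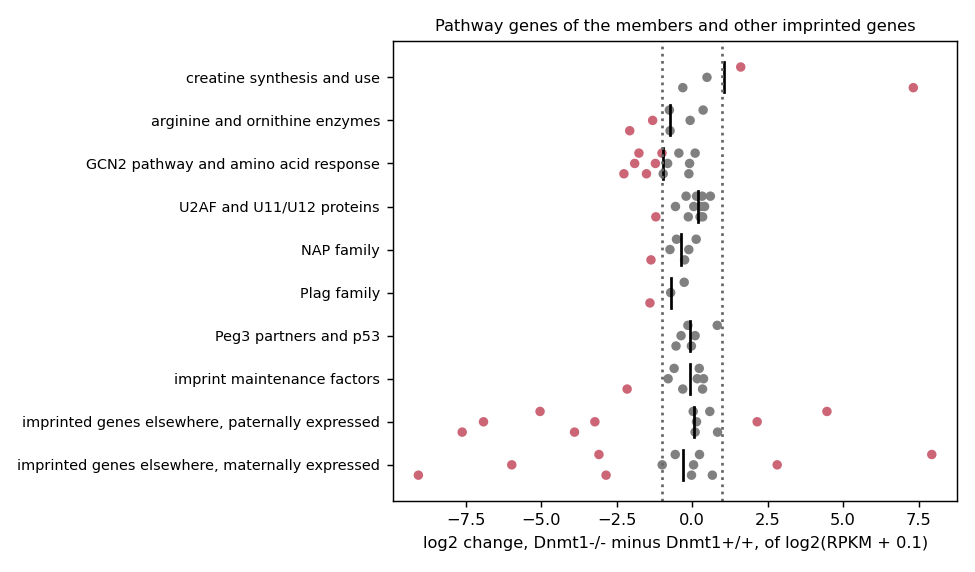
Log2 change of each kept entry, Dnmt1-/- minus Dnmt1+/+, for lists of genes that work with the members and for imprinted genes elsewhere. Black bars are list medians, dotted lines mark 2-fold and coloured points lie past it. The GCN2 list has 6 of 12 points below the lower line and 0 above the upper one, and the imprinted genes spread to both sides.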

How the data were processed

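Strand-specific mRNA-seq reads of 50 bases came from 1 library per genotype. The authors deposited RPKM values computed by Cuffdiff, after TopHat alignment and Cufflinks assembly on mm9, in 1 column per library. Program versions are not given in the sources used here. The paper gives the number of mapped reads of each library. Counts for single entries are not given, so the reads behind a value were not computed and no interval is given. Low RPKM values were not resolved into whole reads. If orientation was not used, sense and antisense reads are mixed.

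Members were found by symbol, at any status. Counts used entries with status OK, a symbol and 1 RPKM or more in either library, on log2(RPKM + 0.1), with a 2-fold limit. Neighbours were the nearest 3 symbols on each side. Entries without a symbol were taken within 10 kb. Coordinates are 1-based in mm9, with gene positions from the GENCODE annotation of NCBIM37. Promoter windows came from RefSeq, for 9 of 10 members. All 10 members, Dnmt1 and, of other lists, up to 6 genes past 2-fold or needed to show a pathway step are named. Igf2, Igf2r and Grb10 are named in addition, and the rest are given as counts. For changed members the 2 nearest genes in both levels are named. Xist, Ddx3y and entries of neighbours under 1 RPKM were picked with their values known. The members and lists were chosen with earlier results of these data known. Calls were tested on simulated data. This checks the working of the 2-fold rule only. The spread between cultures was not tested, since each genotype has 1 library. Python 3.11.15, numpy 2.4.6, pandas 2.3.3 and matplotlib 3.10.9 were used.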

Additional observations from a re-analysis of the deposited data

How the results depend on the processing

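No paired analysis was possible because each genotype has 1 library. The directions of the 3 member entries counted as changed, Gatm higher and 2 Peg3 entries lower, were the same with pseudocounts of 1 and 0.01, with no filter on low RPKM, with a mean RPKM of at least 1, with the median change subtracted and at 4-fold. With a 1.5-fold limit 2 members were higher, Zrsr1 joining Gatm, and 3 entries lower, Nnat joining Peg3. Counting only the Peg3 entry of the annotated strand, an alternative chosen after seeing the data, 1 member entry was lower. Usp29 and Zim1 passed 2-fold with a pseudocount of 0.01, at -2.73 and -2.24, and not with 0.1 or 1.

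Over all genes, 801 were lower with a pseudocount of 1 against 1225, and 1475 were higher without the filter against 952. At 1.5-fold 1580 were higher and 2670 lower, and at 4-fold 500 and 387. Of neighbouring entries 7 were higher without the filter. Plag family genes lower were 0 with a pseudocount of 1, with the mean filter and at 4-fold, and 2 at 1.5-fold. Maternally expressed genes elsewhere that were higher were 4 without the filter and 1 with the mean filter. Without the filter 1 entry of the Peg3 partners was lower. At 1.5-fold, 4 arginine and ornithine enzymes, 1 SERCA regulator (Nnat), 2 NAP genes and 3 imprint maintenance factors were lower, and 1 U2AF or U11/U12 gene and 1 Peg3 partner were higher. At 4-fold, 1 creatine gene was higher, 1 arginine and ornithine enzyme and 1 GCN2 pathway gene were lower, and 0 U2AF or U11/U12 and 0 NAP genes were lower. These counts follow from the limits themselves. With 1 library per genotype no spread between cultures is known, and a value of 0 has no detection limit.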

Other observations

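Genes with levels nearest to those of the changed members in both libraries, by distance on the log2(RPKM + 0.1) scale over the 2 libraries, were Selp and Hand2 for Gatm, Igsf10 and Grik5 for the sense Peg3 entry, and Aqp1 and Kdelr3 for the Peg3 entry of the plus run. Selp, the adhesion molecule P-selectin, and Hand2, a transcription factor of heart and limb, were both at 0 for Dnmt1+/+, and Dnmt1-/- values were 17.1 and 13.7 RPKM. Igsf10 went from 7.79 to 0.208 RPKM. These are likenesses of 2 values.

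Below the limit of 1 RPKM, Aurkc, a meiotic Aurora kinase gene beside Usp29, went from 0.0593 RPKM in Dnmt1+/+ to 0.571 in Dnmt1-/-. Zfp583, on the other side of the Peg3 domain, went from 0.0812 to 0.335. Phactr2, the neighbour of Plagl1 that lies beyond Ltv1, went from 0.338 to 0.920. Without the filter on low RPKM these are among 7 of 52 neighbouring entries counted as higher, where 9.92% of all entries were.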
